A study of Mus musculus with 5 samples.

Results

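Transcripts of 8 enzymes that dispose of ammonia and handle glutamine in the liver were followed in cholangiocarcinoma-like mouse tumours with and without late overexpression of Prox1. They are 4 enzymes of the urea cycle (Cps1, Otc, Ass1 and Asl), Nags, which makes its activator, and the 3 liver enzymes that exchange glutamine, glutamate and ammonia (Gls2, Glul and Glud1). The members were chosen by gene symbol for their place in the pathway, with earlier results of these data known. All 8 were found among the 55397 genes listed and among the 17105 tested. Bulk RNA-seq was available from 5 dissected tumours, 2 Control and 3 Prox1 OE.

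Every mouse was a female of the C57BL/6N strain, injected at 8 weeks of age through the tail vein under hydrodynamic pressure, which delivers DNA to hepatocytes. Both groups received the CMV-driven Sleeping Beauty transposase with transposons carrying Akt and NICD (the intracellular domain of NOTCH, on the plasmid that also encodes rtTA) under the EF1a promoter. The groups differed in the last transposon, in which a doxycycline-responsive Tre promoter drove FLAG-tagged mouse Prox1 with GFP in Prox1 OE and GFP alone in Control. The 6.25% doxycycline diet was started on day 21 in both to switch the transgene on from week 3. Tumours were taken a week into overexpression or at a humane endpoint, and the labels do not say which applied to which tumour. The samples are labelled transformed hepatocytes, but they were whole tumour pieces, and no label ties the replicates to separate mice, so the p-values measure the spread between these libraries.

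Recovered totals were 48740863 to 56629477 reads per library. Values below are normalised counts, meaning reads divided by one size factor per library. Prox1, the gene that was overexpressed, stood at 4153 and 4664 normalised counts in the Control pair and at 48090 (replicate 1), 11113 (replicate 2) and 8231 (replicate 3) with Prox1 OE. Plasmid and endogenous Prox1 reads were not separated. The groups did not overlap for Prox1, but its change of 1.90 on the log2 scale missed the threshold (limma adjusted p = 0.061), with replicate 1 far above the other two. Leaving Prox1 OE replicate 1 out gave 1.12 (limma adjusted p = 0.0056), and leaving Prox1 OE replicate 3 out gave 2.39 (limma adjusted p = 0.032), both past the threshold. Leaving Prox1 OE replicate 2 out gave 2.18 (limma adjusted p = 0.098), which missed it. The change was 1.81 without Control replicate 1 and 1.98 without Control replicate 2.

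The urea cycle turns toxic ammonia and bicarbonate into urea. It starts in hepatocyte mitochondria, where CPS1, which needs the N-acetylglutamate made by NAGS, forms carbamoyl phosphate and OTC joins it to ornithine. It ends in the cytosol, where ASS1 and ASL convert citrulline to argininosuccinate and then to arginine, from which urea is released. In normal liver these enzymes and the glutaminase GLS2 are most abundant in hepatocytes around the portal vein, whereas glutamine synthetase (GLUL), which traps the ammonia that escapes, is restricted to a thin layer of hepatocytes around the central vein. GLUD1 connects both ends by interconverting glutamate with ammonia and α-ketoglutarate.

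Promoter sequences, covering 250 bases before and 50 bases after the annotated start, were available from RefSeq on build GRCm38.p6 for 5 of the 8 genes, namely Otc, Ass1, Nags, Glul and Glud1. They are shown because the 8 genes moved together, and the windows printed are those of the 3 genes that held any of the motifs searched. Capitals mark the core letters CAAAG of the HNF4A motif, read on either strand.
Otc, chrX:10252055-10252354, plus strand: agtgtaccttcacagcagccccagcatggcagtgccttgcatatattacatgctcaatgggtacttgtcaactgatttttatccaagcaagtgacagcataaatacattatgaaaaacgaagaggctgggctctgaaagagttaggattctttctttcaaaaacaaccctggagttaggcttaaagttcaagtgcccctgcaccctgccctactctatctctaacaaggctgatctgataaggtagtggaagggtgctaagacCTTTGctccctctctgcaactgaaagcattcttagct
Nags, chr11:102145263-102145562, plus strand: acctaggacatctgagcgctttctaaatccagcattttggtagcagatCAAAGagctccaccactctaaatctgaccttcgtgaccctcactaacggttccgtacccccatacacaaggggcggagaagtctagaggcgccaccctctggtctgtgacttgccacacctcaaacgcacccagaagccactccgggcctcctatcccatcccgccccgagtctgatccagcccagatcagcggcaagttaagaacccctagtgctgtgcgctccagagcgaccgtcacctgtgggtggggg
Glud1, chr14:34310477-34310776, plus strand: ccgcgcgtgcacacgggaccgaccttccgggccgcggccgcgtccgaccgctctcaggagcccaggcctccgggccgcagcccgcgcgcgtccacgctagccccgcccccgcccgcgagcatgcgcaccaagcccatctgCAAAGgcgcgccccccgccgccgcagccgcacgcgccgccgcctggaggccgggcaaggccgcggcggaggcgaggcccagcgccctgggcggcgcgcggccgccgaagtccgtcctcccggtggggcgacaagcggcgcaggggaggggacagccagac

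HNF4A is a nuclear receptor that drives many hepatocyte genes. Its core letters began 202 bases before the Nags start and 110 bases before the Glud1 start, and from base 14 of the Otc transcript on the minus strand. They are common letters, present in 53.9% of the 32851 mouse promoter windows of the same length. The core AAGACG of the PROX1 motif (5.40% of all windows), the C/EBP letters TTGCNNAA (10.8%), the glucocorticoid receptor letters AGAACA (19.0%) and the TATA box TATAAA (13.6%) were in 0 of the 5 windows on either strand. A match is only a match of letters, and a missing match describes these 300 bases alone. The 5 windows differed widely in base composition, from 1 CpG and 44.3% G + C in Otc to 51 CpG and 81.0% in Glud1, with 14 CpG in Nags, 17 in Glul and 27 in Ass1, against a median of 7 over all windows.

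All 8 enzymes were higher in Prox1 OE than in Control with the deposited normalisation, as they were with TMM, upper-quartile or total-read scaling, although Glud1 had a negative value (-0.33) when libraries were centred on abundant hepatocyte genes. Each of the 8 passed the limma threshold (adjusted p under 0.05 over all genes tested), where 17.1% of the 17105 tested genes were called higher and 16.2% lower. In each of the 8 the lowest Prox1 OE library lay above the highest Control library, as it did for 30.9% of tested genes. Their log2 fold changes ran from 0.88 for Glud1 to 2.74 for Gls2 with a median of 1.74, beside a median of -0.02 over all tested genes. Of the 8, 7 changed by at least 1 on that scale, where 8.35% of tested genes were both called higher and changed by at least 1. Their combined share of reads was 0.144% and 0.189% in Control, and it was 0.332%, 0.326% and 0.421% with Prox1 OE. In bulk tissue, a larger share of cells that express these genes and more of their RNA per cell cannot be told apart.

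**Figure D1:**
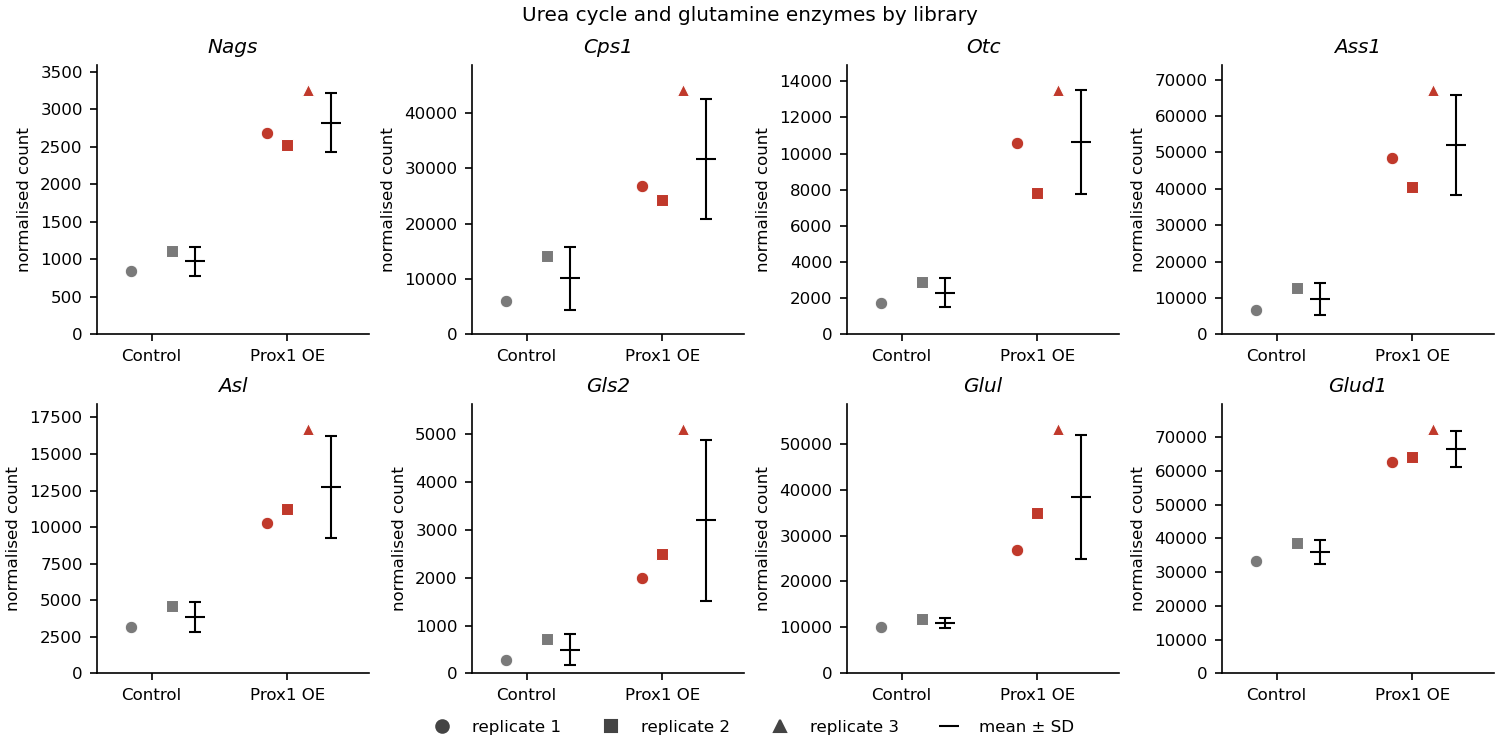
Normalised counts of the 8 enzymes in each library, with Control in grey and Prox1 OE in red, symbols for the replicate number and bars for the mean ± SD of 2 and 3 libraries. In every panel the 3 Prox1 OE libraries lie above both Control libraries, replicate 3 is the highest, and Control replicate 1 is the lowest.

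The mitochondrial entry steps came first. Nags (ENSMUSG00000048217, mm10 chromosome 11, 102145513 to 102149477, plus strand), which makes the obligate activator of CPS1, had 842 and 1114 normalised counts in Control replicates 1 and 2 and 2689, 2520.4 and 3260 in Prox1 OE replicates 1, 2 and 3. Its replicates were the tightest of the urea cycle genes named here, and its log2 fold change was 1.53 (SE 0.17, 95% interval 1.14 to 1.93, limma adjusted p = 0.0024). The antisense gene Gm11586 overlaps its exons and had 13.6 to 41.9 normalised counts per library, far fewer than Nags. Cps1 (chromosome 1, 67123026 to 67231259, plus strand), the committed step, had 6112 and 14206 in Control and 26839, 24204 and 44198 in Prox1 OE. The Control libraries were 2.32-fold apart, and the lowest Prox1 OE value was only 1.70 times the higher of them. The log2 fold change of Cps1 was 1.72 (SE 0.38, 95% interval 0.82 to 2.61, limma adjusted p = 0.014), and it was 1.11 and no longer called without Control replicate 1 (limma adjusted p = 0.11). Otc (chromosome X, 10252305 to 10321024, plus strand), which makes citrulline, had 1742 and 2894 in Control and 10571.5, 7796 and 13532 in Prox1 OE. Its lowest Prox1 OE library was 2.69 times the highest Control library. Otc changed by 2.21 on the log2 scale (SE 0.28, 95% interval 1.56 to 2.85, limma adjusted p = 0.0028).

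Both cytosolic genes were higher, with the larger change at argininosuccinate synthase. Ass1 (chromosome 2, 31470207 to 31520672, plus strand) had 6650 and 12890.3 normalised counts in Control replicates 1 and 2 and 48355, 40558 and 67198 in Prox1 OE replicates 1, 2 and 3. The Control mean of 9770 ± 4413 (SD, n = 2) compared with 52037 ± 13696 (SD, n = 3) in Prox1 OE, a ratio of 5.33. The log2 fold change was 2.46 (SE 0.31, 95% interval 1.73 to 3.19, limma adjusted p = 0.0028), larger than that of 99.2% of tested genes. Asl (chromosome 5, 130011258 to 130029247, minus strand), which splits argininosuccinate into arginine and fumarate, had 3139 and 4596 in Control and 10283, 11239 and 16735 in Prox1 OE. Its change was smaller than that of its neighbour in the pathway, at 1.71 on the log2 scale (SE 0.24, 95% interval 1.14 to 2.28, limma adjusted p = 0.0034), but that gap was not itself tested.

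The 3 glutamine enzymes held both the largest and the smallest change. Gls2 (chromosome 10, 128194457 to 128210004, plus strand), the liver glutaminase that feeds ammonia to CPS1, had 269 and 721 normalised counts in Control replicates 1 and 2 and 1991, 2497 and 5124 in Prox1 OE replicates 1, 2 and 3. It was also the most variable of the 8, 2.67-fold apart in Control and 2.57-fold apart in Prox1 OE. Its log2 fold change was 2.74 (SE 0.49, 95% interval 1.59 to 3.88, limma adjusted p = 0.0067), and 2.03 without Control replicate 1, where it just missed the threshold (limma adjusted p = 0.053). The exons of Gls2 overlap those of Spryd4 on the other strand, which had 1049 and 1260 normalised counts in Control, more than Gls2 itself, and 1696 to 2199 in Prox1 OE, and was itself called higher (limma adjusted p = 0.012). Whether strand was used in counting was not stated, so Gls2 is less certain than the others.

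Glul (chromosome 1, 153899944 to 153909723, plus strand), glutamine synthetase, had 10166 and 11726.5 in Control and 26890.5, 34859 and 53288 in Prox1 OE. The Control libraries were close together and the Prox1 OE libraries spread above them, a difference of 1.75 on the log2 scale (SE 0.27, 95% interval 1.12 to 2.39, limma adjusted p = 0.0043) that was 1.65 without Control replicate 1 (limma adjusted p = 0.051). The opposite-strand Teddm2, which overlaps a Glul exon, had 15.3 to 25.5 normalised counts in Prox1 OE. Glud1 (chromosome 14, 34310727 to 34345265, plus strand), glutamate dehydrogenase, had 33409 and 38595 in Control and 62781, 64011 and 72557 in Prox1 OE. It had the highest count of the 8 in both groups and the smallest change, 0.88 on the log2 scale (SE 0.17, 95% interval 0.50 to 1.27, limma adjusted p = 0.0079). That call was lost without either Control library, at 0.78 without replicate 1 (limma adjusted p = 0.13) and 0.99 without replicate 2 (limma adjusted p = 0.058).

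Counts were next divided by the length of the principal transcript, so that levels could be compared between genes. In Control the order of mean levels, in normalised counts per kb, was Glud1 (10620), Ass1 (5761), Glul (3921), Cps1 (1829), Asl (1603), Otc (999), Nags (482) and Gls2 (192). The values of Ass1 and Glul and of Cps1 and Asl overlapped between these neighbours in Control. In Prox1 OE the order was Ass1 (30682), Glud1 (19602), Glul (13734), Cps1 (5715), Asl (5285), Otc (4585), Nags (1392) and Gls2 (1245). Glud1 thus went from the first place to the second, below Ass1 and separate from it, while the pairs Glud1 and Glul, Cps1 and Asl, Asl and Otc, and Nags and Gls2 overlapped.

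The libraries kept a similar order over the 8 genes. Prox1 OE replicate 3 was the highest of the 5 libraries for 8 of 8 and Control replicate 1 the lowest for 8 of 8. The lowest Prox1 OE library was replicate 2 for 4 genes and replicate 1 for 4. Prox1 itself was highest in Prox1 OE replicate 1 and lowest of the Prox1 OE libraries in replicate 3, so the order of the enzymes among these 3 tumours was not the order of Prox1. Over the 28 pairs of members, Pearson's r on the log2 scale across the 5 libraries ran from 0.929 to 0.998 with a median of 0.979, which is a description of points that share the group difference.

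The genes most like each enzyme across the 5 libraries were looked up among 12961 genes with a mean of at least 100 normalised counts. For Asl the 2 nearest were Fah (tyrosine breakdown) and Apoh (a plasma glycoprotein). They were Cluh and Sord (sorbitol dehydrogenase) for Ass1 and Aldh2 and Sec14l2 for Nags. Ttc39c was among the nearest to Otc. The nearest to Gls2 were Rapgef4 and Plg (plasminogen), to Glul Nat8f2 and Rida, and to Glud1 Xylb and Sirt5. The 2 nearest to Cps1, Tmem14a and Asb8, shared its shape but had log2 fold changes of only 0.35 and 0.25 and were not called (limma adjusted p = 0.15 and 0.16). Pearson's r on the log2 scale was 0.998 or more for these 15 pairs, over 5 points that share the group difference.

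CPS1 has a counterpart that does a related reaction outside the hepatocyte programme, and the ratio of the pair within a library does not depend on the scaling. Cad encodes the cytosolic carbamoyl phosphate synthetase of pyrimidine synthesis, which uses glutamine and not free ammonia. It had 1260 and 1236 normalised counts in Control and 1035, 1057 and 993 in Prox1 OE, which did not pass the threshold (log2 fold change -0.28, limma adjusted p = 0.0996). Cps1 was 6.23 and 14.8 times Cad per kb in Control and 33.3, 29.4 and 57.2 times Cad in Prox1 OE, a difference of 2.00 in the log2 ratio (exact two-sided permutation p = 0.1). That difference was 1.37 without Control replicate 1 and 2.62 without Control replicate 2.

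A further pair, added after its values were seen, was that of the cationic amino acid carriers which bring in arginine. Slc7a2, the low-affinity carrier of liver, had 1760 and 2875 normalised counts in Control and 3639, 4300 and 6157 in Prox1 OE. Slc7a1, the high-affinity carrier that normal hepatocytes nearly lack, had 743 and 877 in Control and 394, 273 and 212 in Prox1 OE. The log2 ratio of Slc7a2 over Slc7a1 was higher by 2.53 in Prox1 OE and the groups were apart, and it was not tested. Of the 9 within-library ratios that were tested, 5 reached the smallest possible exact permutation p of 0.1, which is 0.18 after Benjamini-Hochberg adjustment over the 9.

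**Figure D2:**
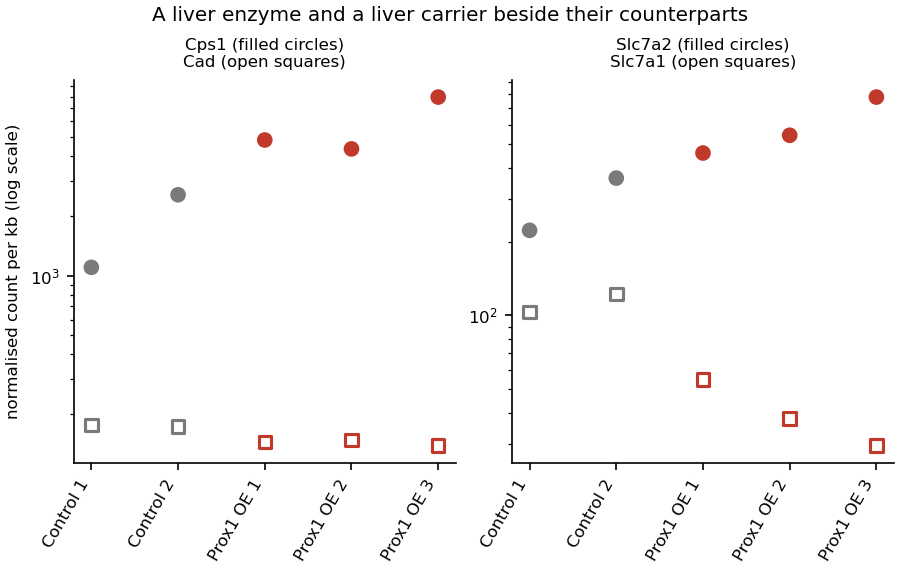
Normalised counts per kb of principal transcript, on a log axis, of Cps1 and Cad (left) and of Slc7a2 and Slc7a1 (right) in each of the 5 libraries (grey, Control, and red, Prox1 OE). Filled circles are (Cps1, Slc7a2) are above open squares (Cad, Slc7a1) in every library, and the gap is wider in the 3 Prox1 OE libraries than in both Control libraries.

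The wider pathway was followed in 6 lists with 48 genes, also chosen with earlier results of these data known. Of these genes, 46 could be tested. In these, 20 were called higher and 7 lower in Prox1 OE, 58.7% of the tested genes against 33.3% of all tested genes. The counts rested in part on the Control libraries, with 15 called without Control replicate 1 and 18 without Control replicate 2. Of the 20 higher genes, 11 stayed called without Control replicate 1 and 14 without Control replicate 2, and of the 7 lower genes 4 stayed called in either case. With total reads as the library size, where 8.62% of all tested genes were called higher and 39.9% lower, 14 of the 20 and 7 of the 7 stayed called. The 6 that lost their call under that scaling were Slc25a13 (log2 fold change 0.18), Car5b (0.45), Oat (0.33), Pycr3 (0.13), Slc38a4 (0.35) and Slc7a2 (0.60).

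Among carriers, isozymes and deacylases that serve the cycle, 7 of 8 tested genes were higher and 0 lower, where 17.1% of all tested genes were higher and 16.2% lower. Their median log2 fold change was 1.16. With total reads as the library size 5 were higher and 0 lower (median 0.73), where 8.62% of all tested genes were higher and 39.9% lower. Slc25a15, the mitochondrial ornithine carrier, changed by 1.13, Slc25a13, the liver aspartate and glutamate carrier, by 0.61, and Slc25a22, a glutamate carrier, by 1.51. The Slc25a15 call was lost without Prox1 OE replicate 2 (1.16, limma adjusted p = 0.057) and in limma without trend (adjusted p = 0.055). Its change was 0.89 without Control replicate 1 and 1.36 without Control replicate 2. The other aspartate and glutamate carrier, Slc25a12, which predominates outside the liver, had 1498 and 1259 normalised counts in Control and 1616, 1162 and 1168 in Prox1 OE, and the groups overlapped (log2 fold change -0.08, limma adjusted p = 0.76). Car5a, the mitochondrial carbonic anhydrase that supplies CPS1 with bicarbonate, had the largest change of the list. It had 158 and 262 normalised counts in Control and 1388, 893 and 1669 in Prox1 OE, a change of 2.64 on the log2 scale (limma adjusted p = 0.0025). Sirt5, which removes acyl groups from CPS1, and Sirt3, a mitochondrial deacetylase with OTC among its substrates, were higher by 1.23 and 1.19. Car5b was higher by 0.88, and Slc25a2 was too low to be tested.

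Of 9 tested enzymes that use the amide nitrogen of glutamine, 0 were called higher and 4 were lower, where 17.1% of all tested genes were higher and 16.2% lower. Their median log2 fold change was -0.51. With total reads as the library size 8 of the 9 were called lower (median -0.94), where 39.9% of all tested genes were. The 4 were Ppat (-0.89) and Pfas (-0.52) of purine synthesis, Ctps (-0.83) of CTP synthesis and Gfpt2 (-1.71) of hexosamine synthesis. The Pfas call was lost without Prox1 OE replicate 2 (-0.49, limma adjusted p = 0.052). Ctps was at -0.73 without Control replicate 1 and at -0.93 without Control replicate 2. The groups were well apart for Ppat, with 2217 and 2190 normalised counts in Control and 1126, 1204 and 1231 in Prox1 OE. Cad, Asns, Gmps, Ctps2 and Gfpt1 did not pass the threshold, with log2 fold changes from -0.51 to 0.02.

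Enzymes that oxidise proline to glutamate were higher. Of 12 ornithine, proline and polyamine genes 5 were higher and 1 lower (median log2 fold change 0.20), where 17.1% of all tested genes were higher and 16.2% lower. But with total reads as the library size 3 were higher and 4 lower (median -0.23), where 8.62% of all tested genes were higher and 39.9% lower. Prodh and Aldh4a1, which carry out that oxidation, changed by 1.90 and 1.53, Oat, the ornithine aminotransferase, by 0.76, Agmat by 1.93 and Pycr3, a last step of proline synthesis, by 0.56. Aldh18a1, the first step from glutamate to proline, fell by 0.65 on the log2 scale (limma adjusted p = 0.015), a call that was lost without Control replicate 1 (adjusted p = 0.12), Control replicate 2 (adjusted p = 0.101) or Prox1 OE replicate 2 (adjusted p = 0.051). Pycr1 (-0.57, limma adjusted p = 0.075) and Odc1, the entry to polyamine synthesis (-0.46, limma adjusted p = 0.069), did not pass, although their groups did not overlap. Of 4 glutamate transaminases, Got1 (1.47), Got2 (1.12) and Gpt (1.28) were higher, where 17.1% of all tested genes were, and Gpt2 was at 0.40 (limma adjusted p = 0.086). Got1 differed among the Prox1 OE tumours, with 2511 normalised counts in replicate 1 against 5738 and 8132 in replicates 2 and 3, and 1472 and 2122 in Control. Its call (limma adjusted p = 0.039) was lost without Control replicate 1 (1.21, adjusted p = 0.22), Control replicate 2 (1.73, adjusted p = 0.091), Prox1 OE replicate 2 (adjusted p = 0.13) or Prox1 OE replicate 3 (adjusted p = 0.079).

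Of 10 transporters tested, 5 were higher and 1 (Slc7a1, -1.51) was lower, with a median of 0.35, where 17.1% of all tested genes were higher and 16.2% lower. But with total reads as the library size 3 were higher and 4 lower (median -0.08), where 8.62% of all tested genes were higher and 39.9% lower. The 4 lower of 10 are thus the share seen over all tested genes under that scaling. Slc38a3, which moves glutamine in both directions in hepatocytes, had 3669 and 6637 normalised counts in Control and 13588, 13977 and 20784 in Prox1 OE, a change of 1.68 on the log2 scale (limma adjusted p = 0.0055). The glutamate carrier Slc1a2 and the ammonium carrier Rhbg, both of which accompany GLUL around the central vein in normal liver, changed by 2.08 and 2.11. Slc38a4 changed by 0.78 and Slc7a2 by 1.03. Slc38a1, Slc38a2, Slc1a4 and Slc1a5, which serve proliferating and many other cells, were not called, and Slc38a5 was too low to be tested. Of the nitric oxide synthases, which also use arginine, Nos2 was lower (127 and 149 normalised counts in Control, 38.9, 44.8 and 34.7 in Prox1 OE, log2 fold change -1.79), and Nos1 and Nos3 were not called.

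**Figure D3:**
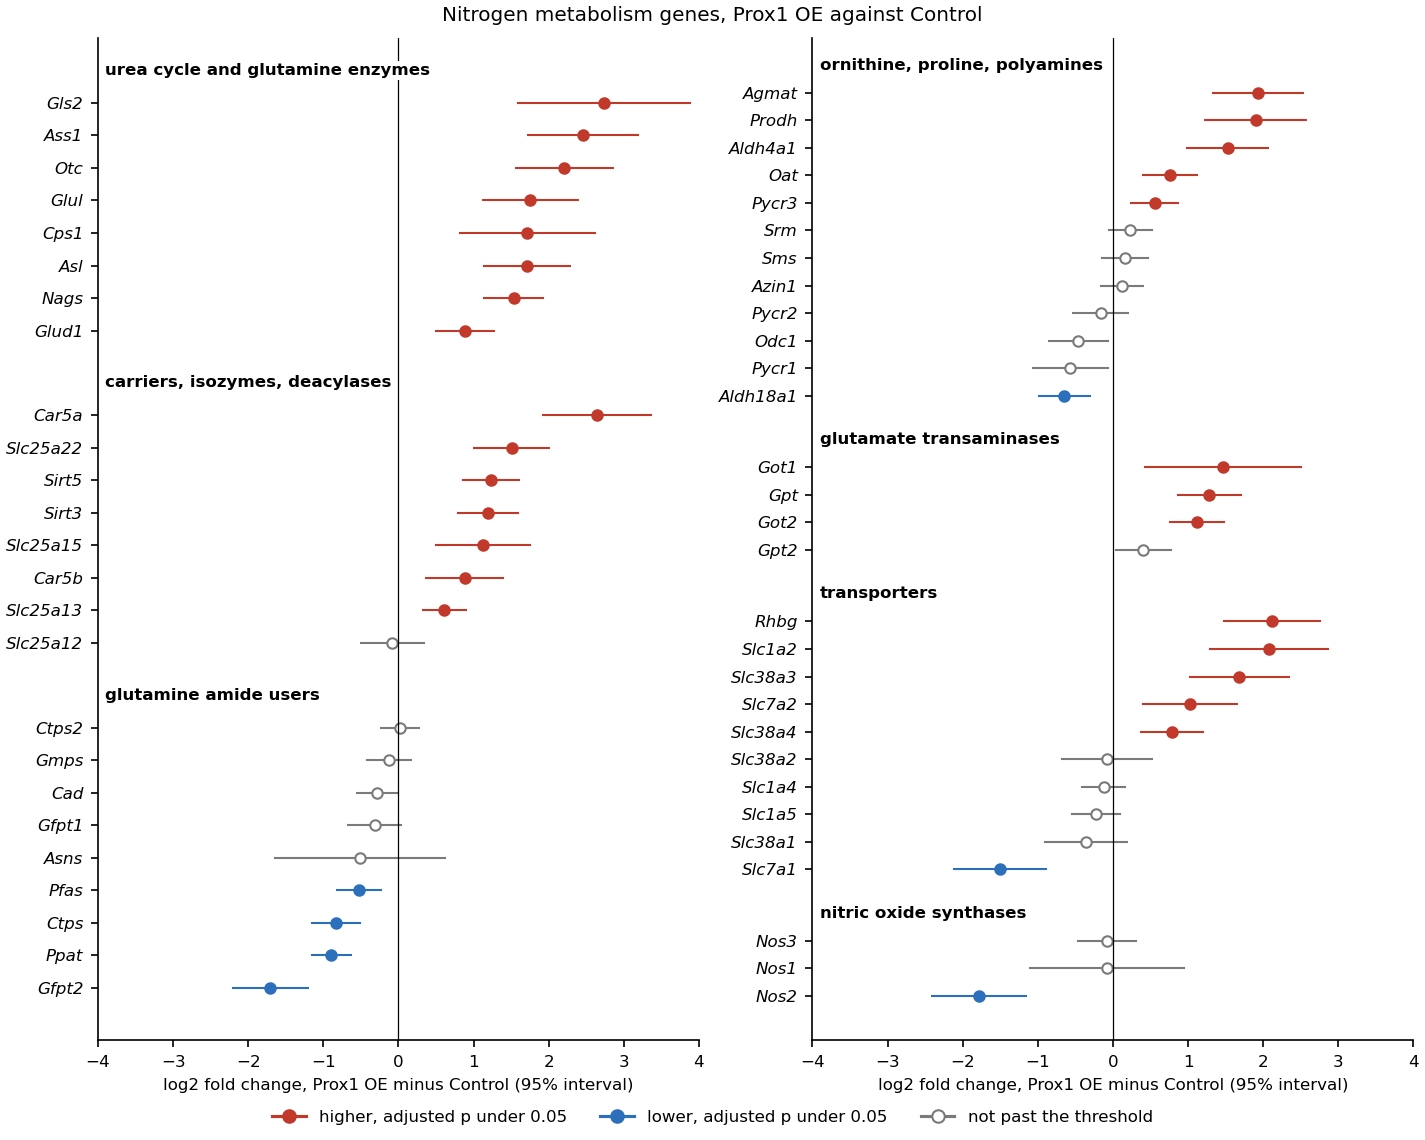
Log2 fold changes of the 8 enzymes and the 46 tested genes of the 6 related lists, Prox1 OE minus Control, with 95% intervals from limma, coloured by whether the adjusted p over all genes was under 0.05. With the deposited normalisation plotted here the 8 enzymes are all to the right of 0, while the glutamine amide users lie to the left or around it.

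Both zones of the hepatocyte programme were represented among the higher genes. Of 8 other periportal genes 6 were called higher (median log2 fold change 1.84), where 17.1% of all tested genes were, among them Cyp2f2 (2.08), Hal (2.90) and Sds (1.73). Of 12 other pericentral genes, which include Oat, Slc1a2 and Rhbg from the lists above, 7 were called higher (median 1.14), among them Cyp2e1 (1.85), Cyp1a2 (2.71) and Cyp2c29 (2.48). With total reads as the library size 5 periportal genes were higher and 0 lower, and 6 pericentral genes were higher and 1 lower. Under that scaling 8.62% of all tested genes were higher and 39.9% lower. Centred on abundant hepatocyte genes, 4 periportal genes were higher and 0 lower (median 0.63), and 2 pericentral genes were higher and 2 lower (median -0.07), where 1.1% of all tested genes were higher and 64.2% lower. The 5 pericentral genes that were not called were Axin2, Lgr5, Tbx3, Nkd1 and Rnf43, with log2 fold changes from -0.11 to 0.62. Of these, Lgr5 and Nkd1 were higher in every Prox1 OE library than in both Control libraries, as 30.9% of all tested genes were. For Lgr5 the lowest Prox1 OE library was only 1.08 times the highest Control library. The mean log2 level of Cps1, Otc, Ass1 and Asl over Glul was -1.40 and -0.74 in Control and -0.47, -1.03 and -0.90 in Prox1 OE. These values overlapped, with a difference of 0.27 that was not tested and that turned to -0.06 without Control replicate 1.

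The enzymes were also set against abundant hepatocyte transcripts. The sum of 8 abundant hepatocyte genes (Alb, Apoa1, Apoa2, Apoc3, Fgb, Fga, Serpina1c and Trf) was 2.68 times as high in Prox1 OE as in Control. Of the 8, 4 were called higher, where 17.1% of all tested genes were. Their own log2 fold changes were unequal, from 0.31 (Fga) and 0.41 (Fgb) to 1.96 (Apoc3) and 2.05 (Apoa2). Those of Cps1, Asl, Nags, Glul and Glud1 lay inside this range and those of Otc, Ass1 and Gls2 above it, so the sign for the former depends on which hepatocyte genes are taken. Relative to the mean log2 level of these 8 genes in the same library, Gls2 was higher by 1.52, Ass1 by 1.24, Otc by 0.99, Glul by 0.54, Cps1 and Asl by 0.50 each and Nags by 0.32, whereas Glud1 was lower by a difference of -0.33. With 1 library left out at a time, the difference ranged from 0.14 (without Control replicate 1) to 0.86 (without Control replicate 2) for Cps1, from 0.15 (without Prox1 OE replicate 1) to 0.41 (without Prox1 OE replicate 3) for Nags, and from -0.49 (without Prox1 OE replicate 1) to -0.19 (without Control replicate 1) for Glud1. In 6 of the 8 the groups remained apart, and in Cps1 and Glud1 they overlapped. Of the 6, Otc (exact permutation p = 0.2) and Nags (exact permutation p = 0.3) did not reach the smallest possible p. The Nags groups were barely apart, at -6.64 in the highest Control and -6.56 in the lowest Prox1 OE library. The share of all genes apart on this scale was not computed. In the limma fit centred on those genes, in which the median of all genes was -1.23, the called enzymes were Otc, Ass1 and Gls2. Centring subtracts the same amount from every gene, so lower genes could only move further down. Of the 20 related genes called higher, 9 took a negative value, as they changed by less than the mean of those 8 hepatocyte genes. Of the 20, 1 (Car5a) was still called higher on that scale.

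With total reads as the library size the median of all genes was -0.44 and that of the 8 enzymes 1.30, with 8 of 8 called higher, where 8.62% of all tested genes were. Under that scaling 17.8% of all calls were higher, in place of 51.4%. With upper-quartile factors this share was 60.3% and the enzymes' median 1.81.

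**Figure D4:**
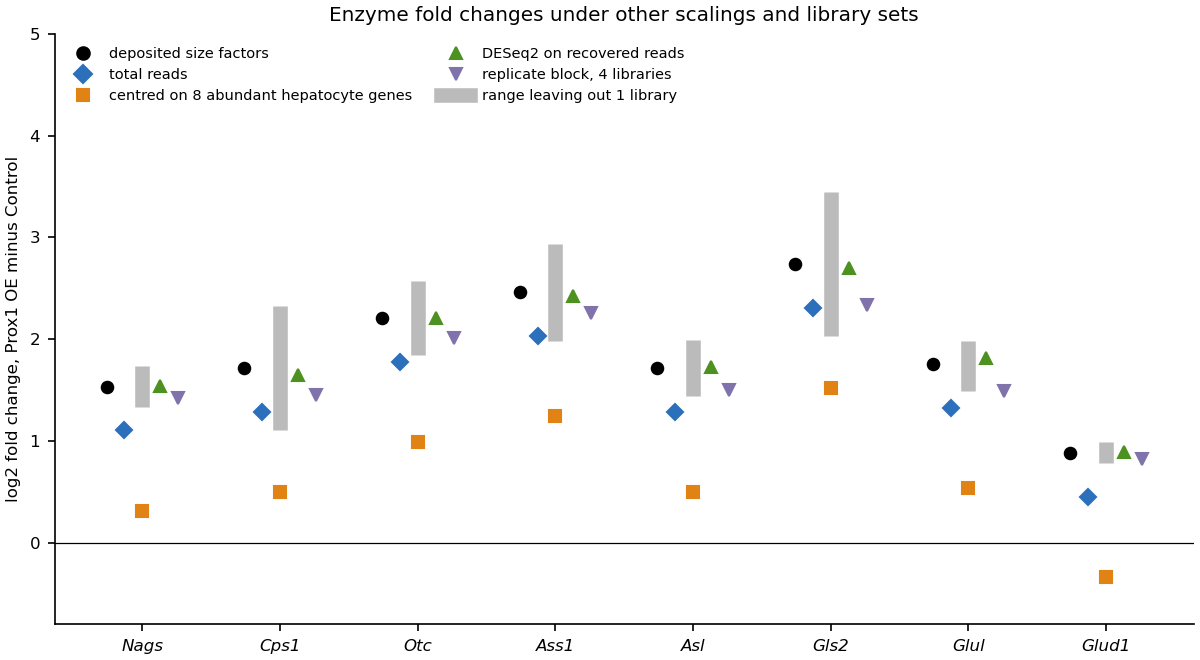
Log2 fold changes of the 8 enzymes, Prox1 OE minus Control, under the deposited size factors (black) and 4 alternatives, with grey bars for the range when each of the 5 libraries was left out in turn. Centring on 8 abundant hepatocyte genes (orange squares) gives the lowest value for each enzyme and puts Glud1 below 0.

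Markers of the cells in the tumours are given beside the 17.1% of all tested genes called higher and the 16.2% called lower. The summed hepatocyte markers, the 8 genes above, were at 1201239 and 1758003 normalised counts in Control and 3473118 to 4947741 in Prox1 OE. Of 7 cholangiocyte markers 6 were called lower, among them the keratins Krt19 (-2.41) and Krt7 (-2.50), the transcription factor Sox9 (-1.21) and Epcam (-1.07), and Krt19, Sox9 and Epcam were present in every library. Their sum of 758041 to 827236 in Control and 523537 to 707468 in Prox1 OE was 93.9% to 97.4% Spp1, the marker that was not called (-0.34). Without Spp1 the other 6 summed to 42487 to 46030 in Control and 14219 to 18644 in Prox1 OE, a ratio of 0.374. Summed macrophage markers were 18533 to 22035 in Control and 27092 to 44169 in Prox1 OE. Of these, 2 of 8 were called higher, Mrc1 and the Kupffer cell lectin Clec4f, and Clec4f was lowest in Control replicate 1 and highest in Prox1 OE replicate 3, as the enzymes were, with 1315 and 2551 in Control and 4119, 4690 and 8473 in Prox1 OE. Endothelial markers summed to 7710 to 9943 in Control and 9676 to 14007 in Prox1 OE, which overlapped. Of 6, Stab2 (1.04) and Clec4g (2.61) of liver sinusoids were called higher. Kdr (0.44), Pecam1 (-0.27), Cdh5 (-0.33) and Lyve1 (-0.53) were not called, and Pecam1 and Cdh5 were lower in every Prox1 OE library than in both Control libraries. Fibroblast and stellate markers summed to 110550 to 118724 in Control and 64475 to 75182 in Prox1 OE, with 1 higher and 3 lower of 7. Low T cell markers summed to 120 to 158 and 320 to 441 (4 of 5 higher), B cell markers to 109 to 126 and 176 to 225 (1 of 3 tested higher), neutrophil markers to 387 to 633 and 488 to 749, which also overlapped (0 of 3 tested, with Ly6g at 3 reads or fewer in every library) and erythroid markers to 4937 to 7492 and 8407 to 17912 (1 of 5 higher). The part of these cells in the values of the 8 enzymes was not tested.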

How the data were processed

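RNA was measured by paired-end sequencing of dUTP libraries (2 Control and 3 Prox1 OE). The authors mapped reads to mm10 with STAR, and the counting tool and its use of strand are not given in the sources used here. The deposited signal per gene is the read count divided by a DESeq2 size factor. Each value was a whole multiple of 1 read (0.822 to 1.18 normalised counts, tolerance 0.01), so whole reads were recovered for 100% of values. A deposited table of the authors' own comparison (mean, fold change, p-values) was not used.

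Genes with a mean of at least 10 were tested with limma 3.58.1 (R 4.3.3), with a trend, on log2(normalised count + 1), two-sided, with Benjamini-Hochberg adjustment over 17105 genes and a threshold of 0.05. Fold changes on this scale understate those of low genes. Counting error alone was behind the floor of 3 reads. On recovered reads edgeR 4.0.16 called 5761 and DESeq2 1.42.0 called 6647 genes, against 5702. Ratios were tested with the exact permutation test. Annotation was GENCODE for GRCm38, which matched 55137 identifiers (99.5%). Pycr3 was found under an older symbol. The procedure was tested on simulated data.

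Genes named were the 8 enzymes, Prox1, the fixed lists and the 2 genes most like each enzyme. The rule found 9 enzymes, and 1 of these, 2 related genes and 1 of the most alike genes are not reported here, so counts, medians and the ratio of cycle enzymes to Glul leave them out. Members and lists were chosen with earlier results of these data known. Replicates were distinct libraries, with a chi-square per degree of freedom of 39.6 or more. Alternatives were other scalings, pseudocounts and filters, limma without trend, edgeR, DESeq2, a replicate block, each library left out, and hepatocyte centring.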

Additional observations from a re-analysis of the deposited data

How the results depend on the processing

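Of 136 values of the 8 enzymes under 17 alternatives each, 126 kept direction and call. Centred on 8 abundant hepatocyte genes, 4 lost their call, Cps1 (0.50), Asl (0.50), Nags (0.32) and Glul (0.54). Glud1 turned to -0.33 (limma adjusted p = 0.31), as it changed by less than the mean of those 8 genes. Leaving out 1 library at a time, Cps1 ranged from 1.11 to 2.32, Gls2 from 2.03 to 3.44, Glul from 1.49 to 1.98, Glud1 from 0.78 to 0.99 and Prox1 from 1.12 to 2.39. The number of enzymes called ranged from 4 to 8, that of all genes from 1158 to 7491 and that of related genes from 15 to 31, the lowest without Control replicate 1. A fit with 1 Control library assumes that it varies as the Prox1 OE libraries do. Prox1 passed the threshold with edgeR (2.36, adjusted p = 0.047) but not with DESeq2 (2.35, adjusted p = 0.065).

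Replicate numbers are shared between the groups, but no label ties them to an animal or day, and deviations within the 2 pairs had correlations of 0.14 and 0.02 across genes. A fit with the replicate block, in which Prox1 OE replicate 3 has no partner and is dropped, gave a Prox1 log2 fold change of 2.39 (adjusted p = 0.0013) and 5246 called genes, among them the 8 enzymes. With 2 Control libraries, exact p-values cannot go below 0.1.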

Other observations

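Some genes next to the urea cycle set Prox1 OE replicate 1 further apart from replicates 2 and 3 than the 8 enzymes did, as noticed after their values were seen. Pck1, the gluconeogenic enzyme, had 6870 and 12639 normalised counts in Control replicates 1 and 2, 11296.5 in Prox1 OE replicate 1, and 56549 and 74609 in replicates 2 and 3 (log2 fold change 1.96, limma adjusted p = 0.078). Sds, serine dehydratase, had 1814 and 2463 in Control and 3594, 9437 and 10092 in Prox1 OE. Asns, asparagine synthetase, was highest in replicate 1 within Prox1 OE, with 660 in replicate 1, 283 in replicate 2 and 181 in replicate 3, around the Control values of 401 and 529. Prox1 OE replicate 1 was also the library with the highest Prox1 count. Any link between that count and these values was not tested, and it cannot be told apart from other differences of that tumour.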
